A study of Mus musculus with 10 samples.

Results

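Plk1, Aurka, Mad2l1, Bub3 and Cdc20 were followed in mouse testis after a single dose of the histone deacetylase inhibitor trichostatin A (TSA). The genes were taken by their symbols in the platform table of the array. That rule used no measured values, but the genes were chosen with earlier results of these data known. Each was read by 1 probe, and all 5 probes were kept by the filter on dim signal, out of 8738 named genes with values on the array. The animals were male Balb-c mice, 9 weeks old, in 5 groups of 3. Control mice were given carrier alone (dimethylsulfoxide and PBS) and were killed at 10 h. The TSA groups received 60 µg per mouse under the skin and were killed at 2.5, 5, 7.5 or 10 h, so the 10 h group alone matched the control in time of killing. Each group's testis RNA was pooled over its 3 mice and run on 2 single-colour CodeLink arrays, which gave 10 arrays from 5 pools. The duplicate arrays were technical, so each condition rested on 1 pool (n = 1), and differences between animals were not measured.

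At mitosis, the kinases Plk1 and Aurora A (Aurka) drive centrosome maturation and assembly of the spindle. The spindle checkpoint then holds the cell in metaphase until every kinetochore is attached. Its effectors Mad2 (Mad2l1) and Bub3 bind Cdc20, the activator of the anaphase-promoting complex, and release it once attachment is complete. In the testis these proteins serve dividing spermatogonia and the meiotic divisions of spermatocytes.

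The promoters of the 5 genes are shown because many genes of the G2 and M phases carry a pair of short elements near their start, a CCAAT box and the cell cycle genes homology region (CHR). The 120 bases before each start site, from RefSeq on GRCm38.p6 and read 5′ to 3′ on the strand of the gene, are given with matches in capitals. The CCAAT box was searched as the letters CCAAT, and the CHR as the letters TTTGAA. A variant of the CHR was searched as the letters TTTAAA. Each was sought on both strands, so a match on the other strand appears in its reversed form, as for the letters TTCAAA in Bub3. No match overlaps another in the stretches shown.
Plk1, chr7:122159315-122159434, plus strand: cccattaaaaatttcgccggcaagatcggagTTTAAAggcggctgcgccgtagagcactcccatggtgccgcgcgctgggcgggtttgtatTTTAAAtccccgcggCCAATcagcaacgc
Aurka, chr2:172370571-172370690, minus strand: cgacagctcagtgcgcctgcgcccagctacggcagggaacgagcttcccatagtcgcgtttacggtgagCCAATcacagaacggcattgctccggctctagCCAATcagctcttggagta
Mad2l1, chr6:66535101-66535220, plus strand: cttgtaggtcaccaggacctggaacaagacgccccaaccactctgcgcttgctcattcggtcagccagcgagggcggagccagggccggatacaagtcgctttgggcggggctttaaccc
Bub3, chr7:131560250-131560369, plus strand: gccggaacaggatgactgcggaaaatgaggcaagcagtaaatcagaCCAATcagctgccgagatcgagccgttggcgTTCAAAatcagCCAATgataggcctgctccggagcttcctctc
Cdc20, chr4:118437344-118437463, minus strand: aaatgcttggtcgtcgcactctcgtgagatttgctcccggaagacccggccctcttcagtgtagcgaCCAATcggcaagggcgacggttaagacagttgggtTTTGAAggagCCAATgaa

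In Plk1 and Aurka the TTTGAA lay after the start site, within these 25 bases.
Plk1, chr7:122159455-122159479: cagcgccgcgTTTGAAttcggggag
Aurka, chr2:172370524-172370548: aaggagaaccTTTGAAttgtaacgg

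Over the full window of 250 bases before to 50 bases after the start, TTTGAA on either strand was found in 4 of the 5 genes. It was absent from the Mad2l1 window. The same letters were found in any window of 20.2% of all 27025 genes, and in 17.9% of all 32851 promoter windows of that length. CCAAT on either strand was found in the same 4 genes, in 41.1% of all genes and in 37.4% of all windows. TTTAAA was found in Plk1 and Aurka, in 14.9% of all genes and in 13.2% of all windows. Bub3 has 2 start sites in the table, with windows that overlap, and the upstream one is shown. These matches describe letters in a window and say nothing of what binds there.

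As a check of the tissue, transcripts of meiotic and haploid germ cells were read on every pool, though not all brightly. Sycp3, a protein of the synaptonemal complex, had an intensity of 31.7 in the control pool, and Ldhc, the lactate dehydrogenase of germ cells, 195. The transition protein gene Tnp1, of elongating spermatids, stood at 172, while the meiotic recombinase gene Dmc1 read 0.381 to 0.447 over the pools. Duplicate arrays correlated across the 7422 probes kept with r of 0.995 to 0.998, and log2 values of 1 array had an SD of 0.0934 to 0.163 within a pool. The 5 h pool held 10 of 10 measured liver transcripts past 2-fold, as were 1.55% of all probes in either direction. Their summed intensity there was 176, against 9.59 to 9.87 in the control arrays. At 2.5 h the sum was also above the control, at 12.8 to 13.5. Leaving out the liver probes changed no call for the 5 genes. That check left the values of the 5 genes in the 2.5 and 5 h pools as they were. It therefore cannot show whether liver RNA in those pools affected them, which was not tested. Fits without the 2.5 or 5 h pool are given below.

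All 5 genes had their highest pool mean in the control and their lowest at 10 h after TSA, an order found in 13.1% of the probes kept. Plk1 was lowest relative to the control, at 45.8% of its level at 10 h, followed by Aurka at 58.7%. Mad2l1, Cdc20 and Bub3 stood at 67.2%, 69.6% and 72% of the control. Of these, Plk1 alone passed a test across all probes. In RNA of a whole tissue, fewer cells of a type and less RNA per cell cannot be told apart.

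Plk1 encodes polo-like kinase 1, which acts from mitotic entry to cytokinesis. Its normalised intensity, a linear and unitless signal whose median on each array was 1, was 1.53 and 1.6 on the control arrays. The arrays at 2.5 h gave 1.16 and 1.1, those at 5 h 1.21 and 1.16, those at 7.5 h 0.928 and 0.934, and those at 10 h 0.678 and 0.757. Every TSA array lay below both control arrays, the 2.5 and 5 h pools overlapped each other, and the later pools lay below both. The log2 fold against the control (± its SE, computed from duplicate arrays) was -0.47 ± 0.053 at 2.5 h and -0.40 ± 0.042 at 5 h. It was -0.75 ± 0.032 at 7.5 h and -1.13 ± 0.085 at 10 h, where the control was 2.19-fold higher. At 10 h, 0.997% of the probes had a lower fold than Plk1, against 12.3% at 5 h.

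Aurka encodes Aurora kinase A, which activates Plk1 and builds the spindle poles. Its control arrays read 7.21 and 7.39. The TSA arrays read 6.04 and 5.33 at 2.5 h, 4.95 and 5.00 at 5 h, 4.95 and 4.74 at 7.5 h, and 4.26 and 4.3 at 10 h. No TSA array overlapped the control, and the 5 and 7.5 h arrays lay close together between the 2.5 and 10 h pairs. The log2 folds were -0.36 ± 0.092, -0.55 ± 0.019, -0.59 ± 0.035 and -0.77 ± 0.018 at 2.5, 5, 7.5 and 10 h. At 10 h the control was 1.7-fold higher, short of the 2-fold limit.

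**Figure D1:**
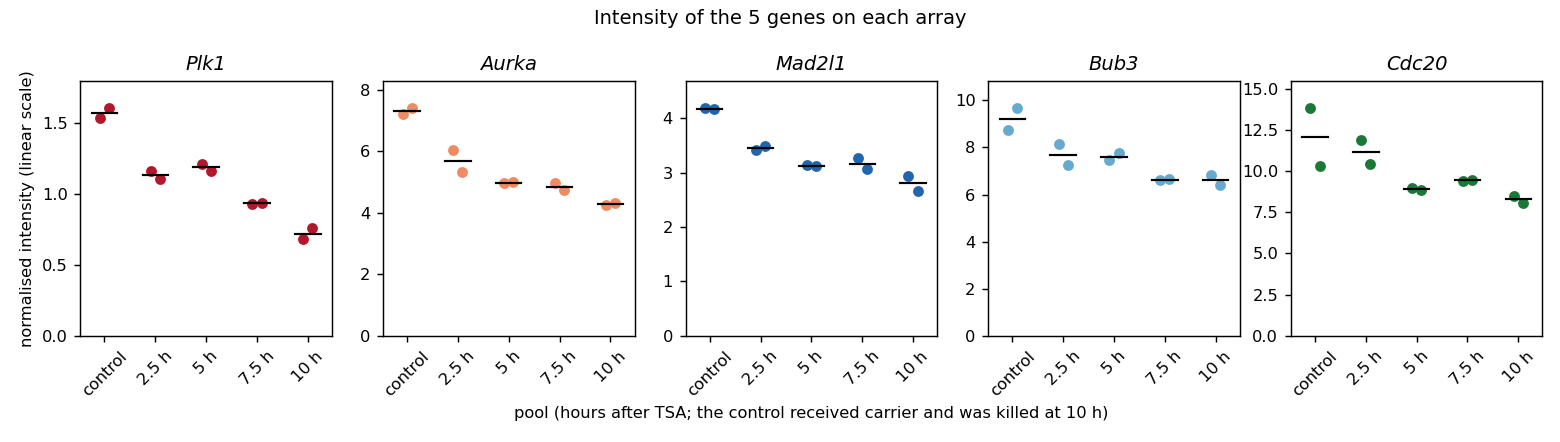
Normalised intensity (linear scale from 0, unitless) of the 5 genes on each of 10 arrays, by pool; points are arrays and bars the mean of the 2 arrays. The control pool is highest and the 10 h pool lowest in each panel, and Cdc20 has the widest pair of control arrays, at 13.8 and 10.3.

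Mad2l1 encodes Mad2, the checkpoint protein that changes shape at unattached kinetochores and captures Cdc20. Its control arrays agreed closely, at 4.18 and 4.16. The TSA arrays read 3.41 and 3.49 at 2.5 h, 3.13 and 3.12 at 5 h, 3.26 and 3.06 at 7.5 h, and 2.93 and 2.67 at 10 h. All 8 lay below the control pair, with overlap between the 5 and 7.5 h pools. The log2 folds were -0.27 ± 0.017, -0.41 ± 0.0042, -0.40 ± 0.045 and -0.57 ± 0.067.

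Bub3 encodes a WD-repeat protein that brings the kinases of the checkpoint to kinetochores. It read 8.73 and 9.66 on the control arrays, 8.15 and 7.25 at 2.5 h, 7.45 and 7.75 at 5 h, 6.61 and 6.66 at 7.5 h, and 6.81 and 6.42 at 10 h. The TSA arrays were again all below the control pair, in 2 levels, with the 7.5 and 10 h pools overlapping below the 2.5 and 5 h pools. Its log2 folds were -0.26 ± 0.11, -0.27 ± 0.079, -0.47 ± 0.074 and -0.47 ± 0.085, the smallest of the 5 genes at 10 h.

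Cdc20 encodes the target of the checkpoint and activator of the anaphase-promoting complex. Its control arrays lay apart, at 13.8 and 10.3, and the arrays at 2.5 h, 11.9 and 10.4, lay between them. The arrays at 5 h read 8.94 and 8.84, those at 7.5 h 9.40 and 9.48, and those at 10 h 8.51 and 8.08, all below both control arrays. The log2 folds were -0.10 ± 0.24, -0.42 ± 0.22, -0.34 ± 0.22 and -0.52 ± 0.22, with errors set by the control pair. The mean over the TSA pools was -0.129 without the first control array and -0.56 without the second.

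Both arrays of a TSA pool were below both control arrays for 4 of the 5 genes at 2.5 h and for 5 of 5 at 5, 7.5 and 10 h. The shares of all probes with such arrays were 39.8%, 42.8%, 38.6% and 38.6%, so separation from the control pair was common. Each pair was technical duplicates of 1 pool. For 4 of 5 genes every TSA array was below both control arrays, against 23% of all probes. The median log2 fold of the 5 genes was -0.27, -0.41, -0.47 and -0.57 at the 4 times, beside -0.016, -0.029, -0.008 and 0.007 for all probes. At 10 h, 1 of 5 genes (Plk1) was at least 2-fold lower with its arrays apart, a rule met by 1.44% of the probes on the lower side and 2.67% on either side. At 2.5, 5 and 7.5 h the rule was met by 0 of the 5 genes and, on the lower side, by 0.243%, 0.337% and 0.903% of the probes (on either side 0.916%, 1.55% and 1.91%). The 4 comparisons share the control pool, so they are not independent of each other.

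**Figure D2:**
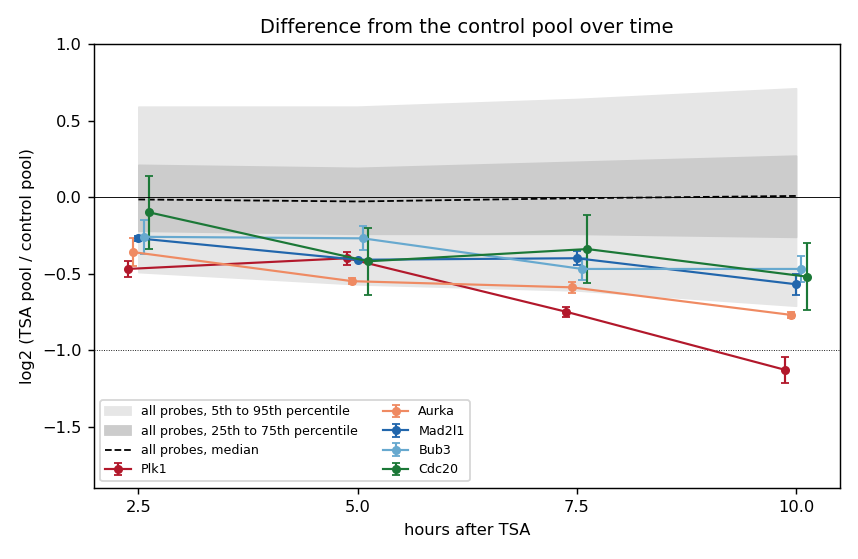
Log2 fold of each TSA pool against the control pool (vertical axis) by hours after TSA, with standard errors from duplicate arrays; shaded bands hold the central part of all 7422 probes and the dotted line marks 2-fold. Plk1 and Aurka leave the 5th percentile of -0.71 at 10 h, where Plk1 reaches -1.13, while the other genes stay within the band.

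Comparisons between TSA pools do not use the control. From 2.5 to 10 h all 5 genes were lower on both arrays, as were 31.4% of the probes. Plk1 differed most, by -0.66 ± 0.09 on the log2 scale, followed by Cdc20 at -0.43 ± 0.10 and Aurka at -0.41 ± 0.091. Mad2l1 differed by -0.30 ± 0.069 and Bub3 by -0.22 ± 0.094. The steps were uneven, with 3 of 5 genes lower on both arrays from 2.5 to 5 h, 3 of 5 from 5 to 7.5 h and 4 of 5 from 7.5 to 10 h, against 34%, 26.8% and 27.6% of the probes. Between 2.5 and 5 h Cdc20 differed by -0.33 ± 0.096 and Plk1 by 0.07 ± 0.051. Between 5 and 7.5 h Plk1 differed by -0.35 ± 0.028 and Cdc20 by 0.09 ± 0.0098. From 7.5 to 10 h Plk1 was lower again by -0.38 ± 0.08, while Bub3 differed by -0.01 ± 0.043. Only Aurka and Bub3 had pool means lower than the one before at every step from the control, an order found in 5.01% of the probes.

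The linear trend over hours, with the control at 0 h although its mice were killed at 10 h, was fitted with limma to the 5 pool means of every probe. Plk1 fell: its log2 intensity changed by -0.101 ± 0.017 per hour (adjusted p = 0.0437 from limma), lower in 4 of 4 TSA pools, and 1.33% of the probes had a steeper fall. It was the only 1 of the 5 genes called, and 1.66% of all probes were called falling, of 2.01% called in either direction. Aurka had a slope of -0.0707 ± 0.015 and did not pass (limma, adjusted p = 0.0633). Cdc20, Mad2l1 and Bub3 had slopes of -0.0515 ± 0.015, -0.0509 ± 0.014 and -0.0464 ± 0.014 (limma, adjusted p = 0.108, 0.102 and 0.113). At an unadjusted p under 0.05 all 5 were falling, as were 12.4% of the probes. That count was 4 without the first control array (all but Cdc20), 3 without the 10 h pool, and 2 without the control pool or with hours and TSA in the same model.

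The Plk1 call stood close to the limit, and several single arrays or pools ended it. Its adjusted p from limma was 0.0502 without the first array at 2.5 h, 0.0505 without the second at 5 h, and 0.0632 and 0.0507 without the first or second at 7.5 h. Without the 2.5, 5, 7.5 or 10 h pool it was 0.058, 0.0682, 0.102 and 0.228. Over the 4 TSA pools alone, without the control, the slope of Plk1 was -0.0928 ± 0.023 and that of Aurka -0.0502 ± 0.015, both short of the limit (limma, adjusted p = 0.207 and 0.236). With arrays centred on probes of like ID number, Aurka passed (slope -0.0954 ± 0.018, limma, adjusted p = 0.0498) and Plk1 did not (0.0594).

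Setting all TSA pools against the control called 0 of the 5 genes with limma, where 0.795% of the probes were called lower and 3.53% in either direction. At an unadjusted p under 0.05, 4 of 5 were lower, as were 13.7% of the probes. Each gene was lower in 4 of 4 TSA pools. Such counts, here and for single genes, rest on 1 shared control pool, and their share over all probes was not counted. Under the stricter order, with every TSA array below both control arrays, the share was 23% of the probes. The mean log2 fold was -0.69 ± 0.27 for Plk1 (limma, adjusted p = 0.156), -0.57 ± 0.16 for Aurka (0.088), -0.41 ± 0.14 for Mad2l1 (0.12), -0.37 ± 0.14 for Bub3 (0.143) and -0.34 ± 0.17 for Cdc20 (0.238). Fits on single arrays, which take the duplicates of a pool as replicates, called 4 of 5 here and 5 of 5 in the trend, with or without the array number as a block. With the pool as a random block 2 of 5 and 3 of 5 were called. The control is a single pool in every fit, taken to vary like the TSA pools.

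Across the 10 arrays the log2 levels of the 5 genes went together, with Pearson r from 0.65 (Bub3 and Cdc20) to 0.96 (Aurka and Mad2l1). These arrays come from 5 pools and share RNA in pairs, so r is a description. Among 3359 brighter probes of other named genes, the pattern most like that of Plk1 was that of the cyclin gene Ccnd3 (r = 0.975), then Cylc1, a gene of the sperm head cytoskeleton (0.966). Mcrs1 (0.989) and Rassf1 (0.984) came closest to Aurka, and Cntd1 (0.991) and Zmynd10 (0.99) to Mad2l1. Dtnbp1 (0.974) and Arfgap2 (0.968) were nearest to Bub3. Cdc20 had the least close neighbours, Rbbp4 (0.947) and Ube2h (0.932), with 5 probes over r = 0.9 against 93 for Plk1 and 136 for Mad2l1. The neighbours were picked by likeness to falling genes on these same arrays. That choice fixed the direction of their slopes, so a fall among them is not a separate result. Of these 10 neighbours Rassf1 passed the trend test, with a slope of -0.11 ± 0.018 (limma, adjusted p = 0.0437), beside 1.66% of all probes called falling. That call was lost in 10 of 28 alternatives (adjusted p up to 0.197), among them each pool left out and either array at 7.5 h left out.

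Other mitotic genes were read from 4 lists, with 1 probe per gene. Of 22 mitotic kinases and regulators kept, 1 passed the test of TSA pools against the control and 1 the trend, both lower, and 0 were called higher. Of all probes, 0.795% were called lower against the control and 1.66% falling. The median log2 fold of the list at 10 h was -0.04, beside 0.01 for all probes. Pbk, a kinase active in mitosis, read 15.9 and 18.7 on the control arrays and 9.38 to 12.3 on the 8 TSA arrays, with no overlap. It fell by 0.74 ± 0.13 on the log2 scale over the TSA pools (limma, adjusted p = 0.0474), lower in 4 of 4. That call ended without any single TSA pool (adjusted p = 0.0564 to 0.11) and without 7 of the 8 TSA arrays in turn.

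Cit, the citron kinase of cytokinesis, fell by 0.157 ± 0.022 log2 units each hour (adjusted p = 0.0301 from limma), lower in 4 of 4 TSA pools. Its control arrays read 0.516 and 0.934 and its 10 h arrays 0.188 and 0.21. The slope was -0.191 without the first control array and -0.123 without the second, and the call ended without the first array at 7.5 h (adjusted p = 0.111) or without the control, 2.5 h or 10 h pool (0.186, 0.058 and 0.183). The probe was dim at 10 h, below the mean intensity of 0.207 required by the filter, so the size of its fall is uncertain. Pkmyt1, which encodes an inhibitory kinase of Cdk1, was at least 2-fold lower at 10 h, at a log2 fold of -1.06, but did not pass the trend test (slope -0.101 ± 0.02, limma, adjusted p = 0.0544). Cdk1 itself was within 0.13 log2 units of the control at each time, and Ccnb2, its cyclin partner, had a mean log2 fold of 0.28 ± 0.13 (limma, adjusted p = 0.198). Birc5 and Aurkb, of the chromosomal passenger complex, had mean log2 folds of -0.08 ± 0.11 and -0.17 ± 0.16. Incenp, of the same complex, went the other way, at 0.44 ± 0.12, above the control in 4 of 4 TSA pools (limma, adjusted p = 0.0808). Plk4, the polo-like kinase of centriole duplication, had a mean log2 fold of -0.20 ± 0.13. Among genes named by the rule, Cdc25a, a phosphatase that activates Cdk1, had a mean log2 fold of 0.62 ± 0.16 and Cks2, a binding partner of Cdk1, one of 0.05 ± 0.23, neither past the test. The values of Cdk1, Birc5, Aurkb, Incenp and Plk4 were chosen after they were seen.

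Of 20 spindle checkpoint and kinetochore genes kept, 0 passed either limma test, while 5 were falling at an unadjusted trend p under 0.05 and 0 rising, beside 12.4% and 12.7% of all probes. The list had a median log2 fold of -0.28 at 10 h, and 15 of 20 members were below the control then, as were 3640 of all 7422 probes. Pmf1, a subunit of the Mis12 kinetochore complex, read 3.51 and 2.65 on the control arrays and 1.18 and 1.39 at 10 h. It was at least 2-fold lower with its arrays apart at 5, 7.5 and 10 h (log2 folds of -1.14, -1.07 and -1.25), with a slope of -0.122 ± 0.024 (limma, adjusted p = 0.0524). Bub1b, which encodes the partner of Bub3 in the inhibitory complex on Cdc20, had log2 folds of -0.40, -0.62, -0.68 and -0.83, and a slope that did not pass (-0.0773 ± 0.016, limma, adjusted p = 0.0586). Mad1l1, the kinetochore anchor of Mad2, had a mean log2 fold of -0.71 ± 0.16 from a dim probe (limma, adjusted p = 0.0598). Ttk, the kinase at the head of the checkpoint, had one of -0.14 ± 0.14 and Ndc80, the microtubule-binding kinetochore protein, one of -0.42 ± 0.13. Cenpk, a centromere protein gene and with Ttk the brightest of the list, stood above the control in 4 of 4 pools, at 0.25 ± 0.11 (limma, adjusted p = 0.202).

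**Figure D3:**
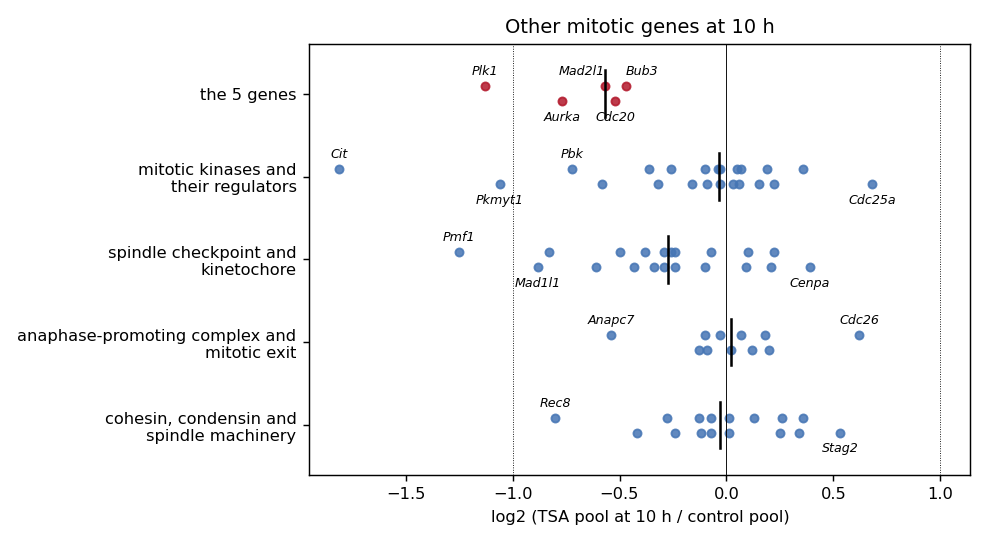
Log2 fold of the 10 h pool against the control pool (horizontal axis) for the 5 genes and the members of 4 lists kept by the filter; each point is 1 gene, black bars are medians and dotted lines mark 2-fold. Plk1, Cit, Pkmyt1 and Pmf1 lie below -1, and the list medians run from -0.28 to 0.02.

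Of 11 genes of the anaphase-promoting complex and mitotic exit, through which Cdc20 acts, 0 passed either limma test and 1 was falling at an unadjusted trend p under 0.05, against 12.4% of all probes. The list median at 10 h was 0.02. Fzr1, the other activator of the complex, had a mean log2 fold of -0.15 ± 0.12, and Pttg1, the securin that the complex degrades, one of 0.23 ± 0.13. The subunit gene Anapc7 had a slope of -0.0502 ± 0.013 (limma, adjusted p = 0.0913) and Anapc1 a mean log2 fold of -0.27 ± 0.18, while the subunit gene Anapc13 had one of 0.15 ± 0.12, which turned to -0.0353 without the second control array. Cdc26, another subunit gene, was 2-fold higher at 2.5 h by the size rule, but its control arrays read 0.898 and 0.308, and its mean log2 fold was 0.00601 without the second of them and 1.55 without the first.

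Of 16 genes of cohesin, condensin and the spindle machinery, 0 passed either limma test, with 1 falling and 2 rising at an unadjusted trend p under 0.05 (12.4% and 12.7% of all probes) and a median of -0.03 at 10 h. Rec8, the cohesin subunit of meiosis, had log2 folds of -0.11, -0.24, -0.89 and -0.80 (slope -0.095 ± 0.02, limma, adjusted p = 0.0599). Stag2, a cohesin subunit of mitotic cells, had a slope of 0.0622 ± 0.014 (limma, adjusted p = 0.0739), which passed without the second control array (0.0861 ± 0.015, adjusted p = 0.0482) and was 0.0383 ± 0.019 without the first (adjusted p = 0.267). Stag3, the cohesin subunit of meiosis related to it, had a mean log2 fold of -0.05 ± 0.11. Racgap1, of cytokinesis, had a mean log2 fold of -0.45 ± 0.13. The condensin genes Smc2 and Ncapd2 had mean log2 folds of -0.23 ± 0.11 and 0.21 ± 0.11 (limma, adjusted p = 0.221 and 0.252). Smc2 had 2 probes kept by the filter, and the value is that of the brighter.

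**Figure D4:**
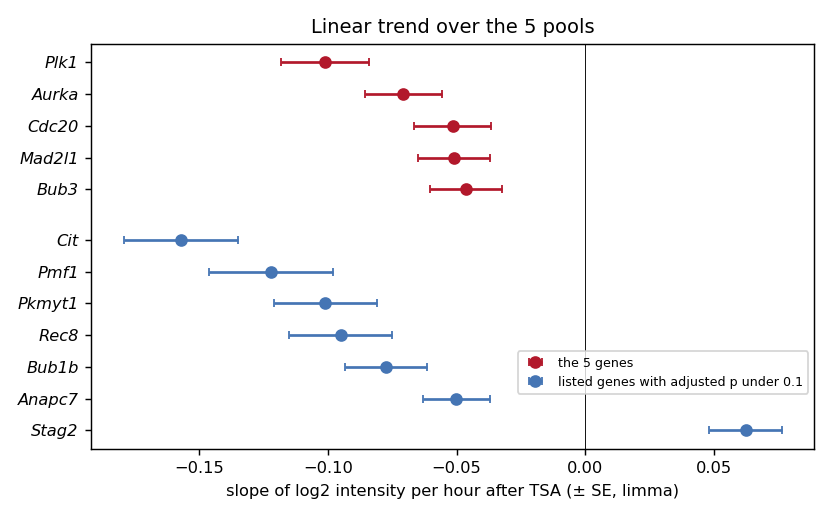
Slope of log2 intensity per hour over the 5 pools (horizontal axis, with limma standard errors) for the 5 genes and for listed genes with an adjusted p under 0.1. Plk1 at -0.101 and Cit at -0.157 passed the limit of 0.05, and Stag2 alone has a slope above 0.

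The summed intensity of 11 spermatocyte markers was 411 to 418 on the control arrays and 381 to 387 at 10 h, and the mean of their log2 levels differed by -0.16, -0.23, -0.15 and -0.27 at 2.5, 5, 7.5 and 10 h. For 7 spermatogonial markers the sums were 29 to 29.5 and 25.7 to 26.4, and the log2 means differed by -0.07, -0.24, -0.17 and -0.21. Among 12 spermatid markers the sum was 634 to 648 in the control and 684 to 739 at 10 h, while the mean of their log2 levels differed the other way, by -0.08, -0.10, -0.13 and -0.15. In these 3 lists 0 genes passed the test against the control. In the trend 1 gene of the spermatid list, Tex101, was called falling, as were 1.66% of all probes (it was named after its values were seen). The part of germ cell numbers in the values of the 5 genes was not tested.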

How the data were processed

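The deposited table held normalised intensity values on a linear scale for 10012 probes on 10 CodeLink arrays (Cy5), of which 115 were empty on all arrays. Per the labels, RNA of 3 mice was pooled per group and each pool hybridised in duplicate. The sorted values of all deposited arrays were the same, as quantile normalisation leaves them. Scanner software, background correction and normalisation method: not given in the sources used here. Gene symbols came from the platform table, updated through gene identifiers (GRCm38.p6).

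A floor at the 5th percentile (0.0364) was set, and values were turned to log2 and shifted to a common median. The dimmest 25% of probes were left out, which kept 7422. Duplicates were averaged because they are technical and share the RNA of a pool. Array numbers did not pair arrays across pools (correlations of deviations from -0.187 to 0.14 over 10 pairs of pools). limma 3.58.1 in R 4.3.3 was fitted to the 5 pool means (residual degrees of freedom: 3). Two-sided p-values were adjusted by Benjamini and Hochberg's method over all kept probes, with a limit of 0.05. At single times a size rule without a test was used, at least 2-fold with both arrays beyond both control arrays. Figures were drawn with matplotlib 3.10.9.

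The scripts were tested on simulated data of 7422 probes: of 100 with a 2-fold change the trend test recovered 55, and of 100 with a 4-fold change 91, with 4 false calls among 7222. The number of pools, 1 per condition, limits the precision. The genes, lists and tests were chosen with earlier results of these data known. Alternatives covered the filter, floor, offset, centring, probes per gene, single arrays and pools left out, blocks and fold limits. Named genes were all members and, from each list, those past a limit, the 4 with the largest mean fold and the 2 brightest, and the 2 probes most like each member. Of the further marker lists, 0 genes of Sertoli (9 kept), Leydig (7), peritubular and endothelial (7), macrophage and leukocyte (3) and blood (4) lists passed either test. Among epididymal genes 1 of 2 kept (Gpx5) was called higher against the control, as were 203 of all 7422 probes.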

Additional observations from a re-analysis of the deposited data

How the results depend on the processing

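The log2 folds of Plk1, Aurka, Mad2l1 and Bub3 against the control, and the slopes of all 5 genes, kept their sign under every alternative run; the fold of Cdc20 at 2.5 h ranged from -0.31 to 0.12 as single arrays were left out. The number of the 5 genes called by the trend was 0 with no filter, 2 with the lowest 50% left out, 2 with an offset of 0.2 before the logarithm, 2 with eBayes trend and robust on, 0 with hours and TSA in the same model and 0 without any single pool, control included. It ranged from 0 to 1 as arrays were left out in turn. On the 10 arrays it was 5 with no replicate block, 5 with the array number as a replicate block and 3 with the pool as a random block. For TSA pools against control the number was 1 with the lowest 50% left out, 1 with eBayes trend and robust on, 4 with and 4 without the replicate block, and 2 with the random block. At 10 h an offset or a 3-fold limit left 0 genes, and a 1.5-fold limit gave 2, as it did at 7.5 h. Over all probes the calls ranged from 0 to 2660 for TSA against control (262 as reported) and from 0 to 2353 for the trend (149). Mean folds that changed sign were those of Stag3 (0.0579) and Cks2 (-0.0925) with arrays centred by blocks of neighbouring probe IDs, Cks2 without the 2.5 h pool (-0.086), Anapc13 without the second control array (-0.0353, against 0.329 without the first), and Stag2 (-0.137), Rec8 (0.169) and Ccnd3 (0.00349) with hours and TSA in the same model. The cause was not tested. Background correction and a slide block were not run, since the table holds neither. Leaving out the liver probes was chosen after seeing the data.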
